A study of Mesocricetus auratus with 6 samples.

Results

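The genes described here encode the subunits of RNA polymerases I, II and III and the general transcription factors that place these enzymes at promoters. They were taken by symbol: every gene whose hamster symbol begins with Polr1, Polr2, Polr3, Gtf2, Gtf3 or Taf plus a digit, and Tbp. That rule found 74 genes among the 16078 listed in each library, made up of 31 polymerase subunit genes, 20 genes of the Gtf series and 23 genes of TBP and its associated factors. A few carry such a name without being basal factors in the strict sense: Gtf2i and Gtf2ird1 of the TFII-I family, the RNA-binding protein gene Taf15, Polr2m, which encodes a protein bound to a form of RNA polymerase II, and Taf5l and Taf6l, whose products belong to the SAGA coactivator.

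The libraries came from BHK21 cells, a fibroblast-like line from baby hamster kidney, for which the labels list an age of 1 day. The control group was given the empty plasmid pCMV-Myc (vector 1 to 3), and the other group STYK1/NOK, a membrane protein with a kinase-like domain that the series describes as an oncogene (STYK1 1 to 3). Total RNA was taken 48 after transfection, with no unit given. Whether the 3 libraries of a group are separate cultures is not stated, so that the p-values below speak to the scatter of these 6 libraries, and that scatter may be technical.

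Transcription of nuclear genes is divided among RNA polymerase I, which makes the large ribosomal RNA precursor, RNA polymerase II, which makes messenger RNA, and RNA polymerase III, which makes transfer RNA and 5S ribosomal RNA. Each enzyme is built around a pair of very large catalytic subunits, with many much smaller proteins bound at the periphery, and several of the small subunits are common to all of these enzymes. The TATA-binding protein TBP takes part in initiation by each polymerase, in complex SL1 for RNA polymerase I, in TFIID for RNA polymerase II and in TFIIIB for RNA polymerase III, and the other factors (TFIIA, TFIIB, TFIIE, TFIIF, TFIIH, TFIIIA and TFIIIC) assemble around the promoter or the polymerase.

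Expression was deposited as FPKM, fragments per length of transcript and per number of mapped fragments, so levels of different genes can be set side by side per length. Between 14119 and 14339 genes per library were above 0, and the FPKM values summed to 528160 to 557946 in 5 libraries and to 619840 in vector 1. Vector 1 stood apart: its Pearson correlation with the other libraries, over the 11464 genes tested, was 0.963 to 0.976, while the highest correlation of each other library was 0.990 to 0.993. The depth is unknown, as no read totals were at hand. Of the markers fixed for the labelled cells, Vim, Pdgfra, Fn1, Pdgfrb and Twist1 were above 1 FPKM, while Col1a1, Col1a2, Col3a1 and Thy1 were not. This list summed to 4426 to 4745 FPKM in the vector libraries and 4228 to 4544 FPKM in the STYK1 libraries. None of 7 epithelial markers reached 1 FPKM (0 of 7), and of 4 endothelial ones only Cdh5 did. The muscle genes Des, Myod1 and Myog were above it, and the 4 muscle markers summed to 861 to 1013 FPKM in vector libraries against 804 to 829 FPKM with STYK1. Of 6 leukocyte markers, Cd68, Cd14 and Csf1r were above 1 FPKM while Ptprc, which defines that lineage, was near 0; their sum was 521 to 534 FPKM in vector libraries against 452 to 513 FPKM with STYK1. The part of these genes in the results was not tested. The hamster Styk1 gene itself read 1.5, 1.8 and 1.89 FPKM for vector 1, 2 and 3, and 2.04, 2.46 and 2.41 FPKM for STYK1 1, 2 and 3; whether this row takes reads from the plasmid is not known here.

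None of the 74 genes differed between STYK1 and vector libraries past an adjusted p of 0.05 (limma-trend, a moderated linear model, on log2(FPKM + 1), Benjamini-Hochberg over 11464 genes; member adjusted p from 0.469 to 0.992; background 0% of all genes tested). At an unadjusted p under 0.05 the same test gave 4 members with higher and 8 with lower values in STYK1 libraries. Those were 5.41% and 10.8% of the members, against 4.95% and 4.88% of all genes tested, and in either direction 12 members (16.2%) against 9.84%. The 3 STYK1 libraries lay above the 3 vector libraries for 11 members (14.9%; background 13.6%) and below them for 12 (16.2%; background 9.44%). The counts at an unadjusted p depended on single libraries: they were 0 higher and 1 lower without STYK1 1, 0 and 3 without STYK1 2, and 1 and 4 without STYK1 3. Scaling mattered as well. Equal FPKM sums gave 8 higher and 4 lower and moved the median log2 fold change of all genes from 0.014 to 0.12, while centring on the library median gave 2 and 10. The shares of all genes called in these alternative fits were not computed. Whether the shifts in the counts are particular to the members is therefore not known. The median over the members was -0.024, and 0.076 with equal FPKM sums. Because bulk RNA was measured, fewer cells of a type and less RNA per cell cannot be told apart.

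Small and large members, taken as classes, lay mostly on opposite sides. Using textbook size classes, 30 members were counted as small (such as Polr2d to Polr2l and Taf9 to Taf13) and 26 as large (the catalytic subunits, Taf1 to Taf6 with their paralogs, and most of TFIIIC). Of the small members, 24 of 30 had lower and 6 had higher values in STYK1 libraries, with a median log2 fold change of -0.17. Among the large members 22 of 26 were on the higher side and 4 on the lower, with a median of 0.10. The 18 members that the list placed in neither class had 8 higher and 10 lower, with a median of -0.028. In the small class the lower side came mainly from polymerase subunits, 17 of 19 of which were lower. The 5 small Gtf factors had 2 higher and 3 lower, with a median of -0.024. For all genes tested the median was 0.014, and 52.7% were on the higher side. At an unadjusted p under 0.05 there were 7 small members lower (23.3%; background 4.88%) and 0 higher, and 2 large members higher (7.69%; background 4.95%) and 0 lower, so the share of large members was near that of all genes. The small members whose groups did not overlap were 9 lower (30%; background 9.44%) and 0 higher, while the large ones were 8 higher (30.8%; background 13.6%) and 0 lower. With equal FPKM sums, 18 of 30 small members were on the lower side and 23 of 26 large members on the higher, with medians of -0.061 and 0.21. That scaling also put 8091 of all 11477 genes tested on the higher side, with a median of 0.12.

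**Figure D1:**
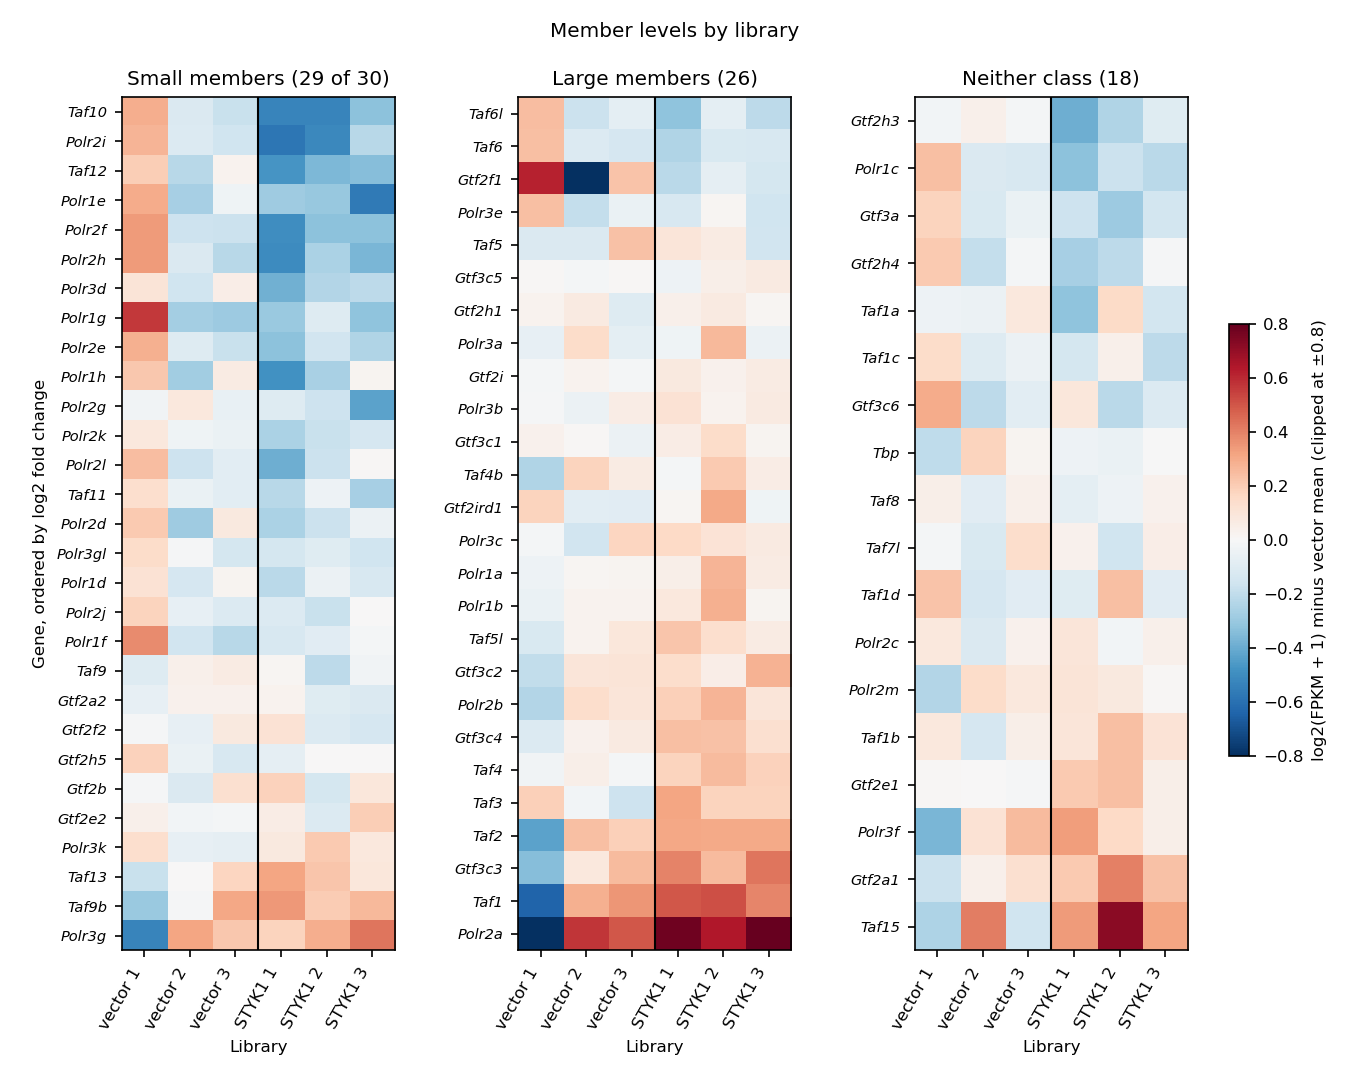
Each row is a gene and each column a library; colour gives log2(FPKM + 1) minus the gene's mean in the vector libraries, clipped at 0.8, for 29 of 30 small, 26 large and 18 other members ordered by log2 fold change. Blue cells gather in the STYK1 columns of the small members, with red in vector 1, and Polr2a, Taf1, Gtf3c3 and Taf2 at the foot of the large panel are low in vector 1.

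Within a library, the mean log2 level of the small members minus that of the large ones does not depend on how the library was scaled by a constant, apart from the effect of the pseudocount. Relative to the vector mean it was 0.19, -0.092 and -0.094 for vector 1, 2 and 3, and -0.29, -0.31 and -0.20 for STYK1 1, 2 and 3. Every STYK1 library was thus below every vector library, and vector 1 lay farther from the other vector libraries than those lay from the STYK1 libraries. The difference between the medians of the classes was -0.27 with all 6 libraries and -0.17 without vector 1, and it lay between -0.33 and -0.23 when any other library was left out. No test is attached, since the members and their classes were chosen with earlier results of these data known, and the same difference over all genes was not computed for want of protein lengths.

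Polymerase subunits carried the widest gap between group means: -0.35, beside -0.22 for the TBP-associated factors and -0.10 for the Gtf genes. Against vector 2 and 3 alone these gaps were -0.19, -0.17 and -0.10. For the polymerase subunits vector 1 lay 0.48 above the mean of vector 2 and 3. The small-minus-large value of these subunits was 0.32, -0.16 and -0.16 for vector 1, 2 and 3, and -0.41, -0.40 and -0.25 for STYK1 1, 2 and 3, from 19 small and 8 large subunits. For the TBP-associated factors (6 small, 9 large) it was 0.11, -0.098 and -0.0085 in vector libraries and -0.20, -0.28 and -0.18 with STYK1, again without overlap. For the Gtf genes (5 small, 9 large) it was 0.0045, 0.023 and -0.027 in vector libraries and -0.018, -0.21 and -0.083 with STYK1, where the groups overlapped.

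**Figure D2:**
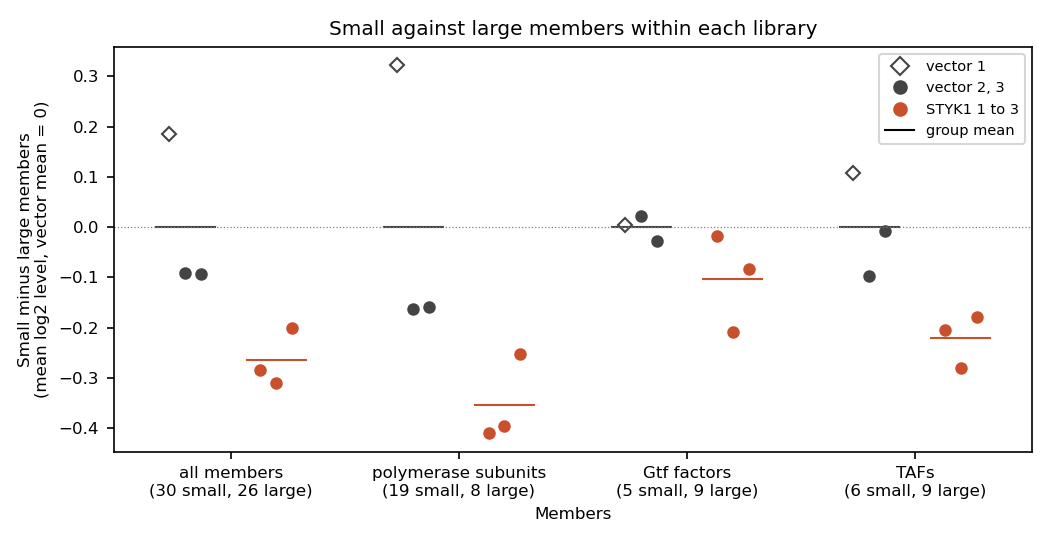
Points are libraries, lines are group means, and the vertical axis is the mean log2(FPKM + 1) of small members minus that of large members, with the vector mean set to 0. STYK1 libraries lie between -0.20 and -0.31 over all members, below vector 2 at -0.092, vector 3 at -0.094 and vector 1 at 0.19; the groups overlap only for the Gtf factors.

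Vector 1 took part in this unevenly. It was the highest of the 6 libraries for 19 of 30 small members (63.3%) and the lowest for 12 of 26 large members (46.2%). Over all genes tested it was the highest for 37.1% and the lowest for 36.2%. Without vector 1, 21 of 30 small members were on the lower side (median -0.082) and 22 of 26 large members on the higher (median 0.086), beside 55.6% of all genes on the higher side. Of the 74 members, 29 had a fold change smaller by over 1.5 times without that library, 8 a larger one, 27 stayed within that factor and 10 took the opposite sign. At an unadjusted p under 0.05 there were then 5 members higher (6.76%) and 8 lower (10.8%), against 4.91% and 4.57% of 11455 genes.

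The largest subunit of RNA polymerase II, Polr2a (Gene ID 101841866), carries the catalytic site and the C-terminal repeat domain that is phosphorylated during transcription. Polr2a measured 4.24, 15.3 and 14.5 FPKM for vector 1, 2 and 3, and 17.8, 16.1 and 18.1 FPKM for STYK1 1, 2 and 3. The STYK1 values were all above the vector values, and vector 1 was 3.85-fold below the mean of the other 5 libraries. The log2 difference was 0.74 ± 0.38 (SE; 95% interval -0.14 to 1.62; limma-trend, unadjusted p = 0.0902), the largest of any member, and 0.21 without vector 1. Polr2b (Gene ID 101839494), the second catalytic subunit, stood at 33.5, 43.8 and 42.5 FPKM with vector and 45.5, 48.03 and 42.5 FPKM with STYK1. Vector 1 was again the lowest library, the other 5 overlapped, and the difference was 0.19 ± 0.12 (SE; limma-trend, unadjusted p = 0.151), or 0.067 without vector 1.

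All 9 small Polr2 genes had lower means in STYK1 libraries, with a median log2 fold change of -0.23, and of -0.15 without vector 1; with equal FPKM sums 8 of 9 were lower. Polr2i (Gene ID 101842642), a zinc-binding subunit of the enzyme's jaw, had 76.9, 59.02 and 56.8 FPKM with vector and 42.3, 44.3 and 54.5 FPKM with STYK1. The groups did not overlap, though STYK1 3 lay close to vector 3. Its means of 64.2 ± 11.03 and 47.01 ± 6.55 FPKM (SD, n = 3 each) differed 1.37-fold, and the log2 difference was -0.44 ± 0.14 (SE; limma-trend, unadjusted p = 0.0146), or -0.30 without vector 1. Polr2g (Gene ID 106023023), which pairs with Polr2d in the stalk of the enzyme, measured 26.5, 28.6 and 25.9 FPKM with vector and 25.1, 23.95 and 19.8 FPKM with STYK1. Vector 1 did not stand out here, the groups did not overlap, and the difference of -0.23 ± 0.11 (SE) was -0.24 without it. Polr2d itself measured 33.2, 23.2 and 30.1 against 23.8, 25.2 and 27.6 FPKM, and Polr2j, of the assembly heterodimer with Polr2c, 98.9, 83.2 and 80.8 against 80.95, 77.2 and 87.6 FPKM, both with overlapping groups. Polr2c and Polr2m, which belong to neither size class, had means of 47.5 ± 3.44 and 117 ± 16.1 FPKM with vector and 48.7 ± 1.99 and 122 ± 4.04 FPKM with STYK1, so each differed by less than the SD of its vector libraries.

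Levels per length varied widely within this single enzyme. Averaged over the 6 libraries, Polr2a was lowest at 14.3 FPKM and Polr2f highest at 148 FPKM, with Polr2b at 42.6 and Polr2l at 143 FPKM. Across all members the small class had a median level of 29.8 FPKM and the large class 14.7 FPKM, beside 15.8 FPKM for all genes tested.

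**Figure D3:**
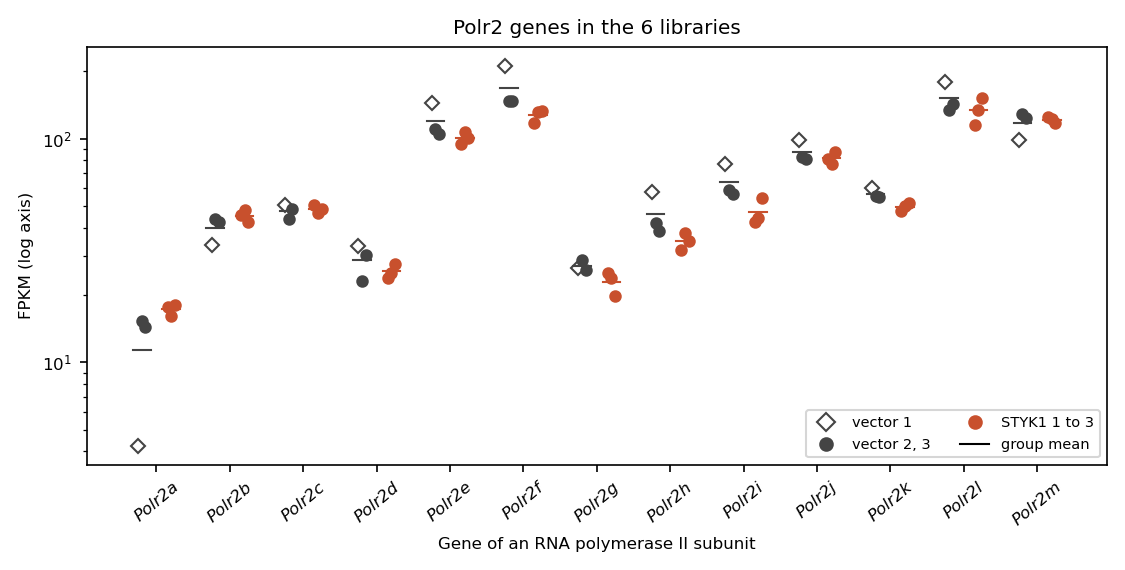
FPKM of the 13 Polr2 genes on a log axis, with 1 point per library, lines for the group means and vector 1 as an open diamond. Vector 1 lies far below the rest for Polr2a at 4.24 FPKM and above them for Polr2e, Polr2f, Polr2h and Polr2i, and the STYK1 values of Polr2f, Polr2g, Polr2h, Polr2i and Polr2k lie below vector 2 and vector 3.

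The 5 subunits common to all of the polymerases (Polr2e, Polr2f, Polr2h, Polr2k and Polr2l) had the same extremes: for each of the 5, vector 1 was the highest and STYK1 1 the lowest library, which are also the libraries of highest and lowest FPKM sum. Their median log2 fold change was -0.24, -0.15 without vector 1 and -0.13 with equal FPKM sums, and 5 of 5 were below 0 in each of these settings. Polr2f (Gene ID 101829232), a subunit that helps hold the enzyme's core together, measured 211, 148 and 147 FPKM with vector and 118, 132 and 133 FPKM with STYK1. The groups did not overlap; the means were 169 ± 36.7 and 128 ± 8.32 FPKM (SD, n = 3 each), and the log2 difference was -0.38 ± 0.14 (SE; limma-trend, unadjusted p = 0.0275), or -0.21 without vector 1. Polr2h (Gene ID 101829251), a small subunit at the edge of the enzyme, measured 57.8, 41.8 and 38.8 FPKM and 31.7, 38.02 and 35.01 FPKM in the same order, with a difference of -0.37 ± 0.15 (SE; limma-trend, unadjusted p = 0.0373), or -0.21 without vector 1. Its STYK1 2 value lay just under vector 3.

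Polr2k (Gene ID 101844290), among the smallest subunits, was at 60.2, 55.3 and 54.7 FPKM with vector and 47.3, 49.9 and 51.5 FPKM with STYK1, a narrower but non-overlapping gap (-0.19 ± 0.083, SE; -0.15 without vector 1). Polr2e measured 145, 111 and 105 against 94.6, 107 and 100.4 FPKM (-0.24 ± 0.13, SE). For Polr2l the values were 179.9, 135 and 143 against 115, 134 and 152 FPKM (-0.19 ± 0.14, SE), and both genes had groups that overlapped. The differences of Polr2e and Polr2l without vector 1 were -0.10 and -0.062.

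The subunits Polr1c and Polr1d, which form an assembly heterodimer shared by RNA polymerases I and III, were both among the more abundant members. Polr1c (Gene ID 101842250) measured 108, 84.1 and 83.5 FPKM with vector and 72.5, 80.9 and 78.3 FPKM with STYK1, without overlap (-0.24 ± 0.11, SE; -0.12 without vector 1). Polr1d (Gene ID 101841925) measured 179, 150.1 and 167 FPKM and 142, 159.8 and 151 FPKM, with overlap (-0.13 ± 0.093, SE; -0.072 without vector 1).

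Among subunits particular to RNA polymerase I, the catalytic pair differed little between the groups. Polr1a (Gene ID 101822487) measured 7.63, 7.98 and 8.03 FPKM with vector and 8.16, 9.71 and 8.30 FPKM with STYK1, and Polr1b (Gene ID 101824604) 10.99, 11.7 and 11.7 and 12.2, 14.2 and 11.6 FPKM. STYK1 2 was the highest library for both, the groups of Polr1a were separated by only a small gap, and the log2 differences were 0.13 ± 0.11 and 0.13 ± 0.11 (SE; limma-trend, unadjusted p = 0.295 and 0.265). Vector 1 was close to the other vector libraries for these large subunits, unlike Polr2a.

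Polr1e (Gene ID 101822865), of the heterodimer that helps the enzyme initiate and elongate, was low, at 9.67, 6.25 and 7.51 FPKM with vector and 6.13, 6.04 and 4.89 FPKM with STYK1. Its groups did not overlap, but vector 2 and STYK1 1 were nearly level (-0.38 ± 0.17, SE; limma-trend, unadjusted p = 0.0490; -0.24 without vector 1). Polr1g (Gene ID 101823436), its partner, measured 47.2, 25.99 and 25.7 FPKM with vector and 25.5, 29.4 and 25.1 FPKM with STYK1. Vector 1 alone set the sign of its difference, which was -0.24 ± 0.22 (SE) with that library and 0.041 without it. Polr1f, of the stalk, was also highest in vector 1, at 52.5, 36.01 and 34.4 FPKM with vector and 36.7, 37.8 and 39.8 FPKM with STYK1 (-0.078 ± 0.15, SE; 0.11 without vector 1). Polr1h measured 19.3, 13.4 and 17.4 and 11.6, 13.7 and 16.8 FPKM, with overlap. Polr1e, Polr1f and Polr1g are mid-sized proteins that the textbook list had placed in the small class; leaving them out together with Polr3d and Gtf2b, a choice made after the data were seen, gave a small-minus-large difference of -0.26 in place of -0.27.

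Of the 10 genes particular to RNA polymerase III, 6 (60%) had higher and 4 lower means in STYK1 libraries, near the 52.7% of all genes on the higher side. Their median log2 fold change was 0.067, and 0.028 without vector 1, where that of all genes was 0.019. The catalytic subunits Polr3a (Gene ID 101829755) and Polr3b (Gene ID 101827965) measured 7.49, 8.83 and 7.42 FPKM and 8.03, 7.80 and 8.51 FPKM with vector and 7.67, 9.65 and 7.61 FPKM and 8.89, 8.30 and 8.59 FPKM with STYK1. Both had overlapping groups, with differences of 0.059 ± 0.13 and 0.074 ± 0.11 (SE) whose 95% intervals were -0.25 to 0.37 and -0.17 to 0.32. Polr3d (Gene ID 101841341), of the subcomplex that acts in termination and reinitiation, was lower in all 3 STYK1 libraries, at 11.2, 12.6 and 12.8 FPKM, than in the vector libraries, at 16.2, 13.3 and 15.6 FPKM (-0.28 ± 0.11, SE; limma-trend, unadjusted p = 0.0392; -0.22 without vector 1). Vector 1 and vector 3 were nearly level for this gene.

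The paralogs Polr3g and Polr3gl, alternative subunits of the initiation subcomplex, went apart in vector 1. Polr3g (Gene ID 101837387) measured 4.39, 8.71 and 8.03 FPKM with vector and 7.83, 8.54 and 9.46 FPKM with STYK1, so that vector 1 was 1.94-fold below the mean of the rest, an exception among the small members. Its difference was 0.30 ± 0.22 (SE), and 0.034 without vector 1. Polr3gl measured 34.7, 30.99 and 28.1 and 28.1, 29.02 and 27.9 FPKM, highest in vector 1. How reads shared by such paralogs were assigned is not known here, so their split is uncertain; the same holds for Taf9 and Taf9b. Polr3k (Gene ID 101832197), which acts in transcript cleavage, measured 18.8, 16.2 and 16.1 FPKM with vector and 17.97, 19.8 and 18.1 FPKM with STYK1. Its groups overlapped through vector 1, and the difference was 0.12 ± 0.10 (SE) with that library and 0.19 without it, the latter at an unadjusted p under 0.05. Polr3f, a winged-helix subunit, measured 9.64, 13.8 and 15.3 FPKM with vector and 16.3, 14.3 and 13.2 FPKM with STYK1, with vector 1 the lowest library and the other 5 overlapping. Its partner Polr3c measured 11.97, 10.8 and 13.7 against 13.6, 13.1 and 12.8 FPKM and Polr3e, the partner of Polr3d, 30.4, 22.3 and 24.7 against 23.4, 25.9 and 22.8 FPKM, both with overlap.

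Tbp (Gene ID 101839769) differed by less than the spread between vector libraries. It measured 18.2, 23.95 and 21.3 FPKM with vector and 20.4, 20.2 and 20.95 FPKM with STYK1, a difference of -0.032 ± 0.11 (SE; 95% interval -0.29 to 0.23). The STYK1 values fell within a narrow band inside the vector range; without vector 1 all 3 lay below vector 2 and vector 3, and the difference was -0.13.

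TFIID, the complex of TBP with its associated factors, held the member of smallest p. Of the 9 large TAFs, with Taf5l and Taf6l of SAGA among them, 7 (77.8%) were on the higher side with all libraries. Over all genes tested that share was 52.7%. Without vector 1 it was 5 of the 9, no more than the 55.6% of all genes. Taf10 (Gene ID 101822542), a small histone-fold subunit that TFIID shares with SAGA, measured 100.2, 75.3 and 71.9 FPKM with vector and 56.2, 56.3 and 64.8 FPKM with STYK1. All 3 STYK1 values were below all vector values; the means were 82.4 ± 15.4 and 59.1 ± 4.95 FPKM (SD, n = 3 each), a 1.39-fold difference. On the log2 scale this was -0.46 ± 0.13 (SE; 95% interval -0.77 to -0.15; limma-trend, unadjusted p = 0.00855, adjusted p = 0.469) and -0.31 without vector 1. Taf12 (Gene ID 101843959), another small histone-fold subunit of both complexes, measured 17.5, 12.8 and 15.5 FPKM with vector and 10.6, 11.6 and 11.8 FPKM with STYK1 (-0.39 ± 0.13, SE; limma-trend, unadjusted p = 0.0151; -0.29 without vector 1), also without overlap.

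The other small TAFs had overlapping groups, and not all of them had lower means in STYK1 libraries. Taf9, the histone-fold partner of Taf6, measured 55.9, 61.8 and 62.9 FPKM with vector and 60.7, 51.9 and 58.8 FPKM with STYK1, with overlap. Taf11, a histone-fold partner of Taf13, measured 11.6, 10.1 and 9.84 against 8.85, 10.1 and 8.56 FPKM, also with overlap. Taf13, at 16.8, 19.2 and 21.7 and 24.1, 22.4 and 20.5 FPKM, and Taf9b, a paralog of Taf9 at 2.13, 2.83 and 3.77 and 3.91, 3.43 and 3.61 FPKM, had higher means in STYK1 libraries, and vector 1 was the lowest library for both. Of the 6 small TAFs, 4 were on the lower side and 2 on the higher; with equal FPKM sums the split was 3 and 3.

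The scaffold subunit Taf1 (Gene ID 101838159), the largest of TFIID, measured 7.60, 15.3 and 16.1 FPKM with vector and 17.9, 18.2 and 16.5 FPKM with STYK1. As with Polr2a, the groups did not overlap and vector 1 lay 2.21-fold below the mean of the others. The difference was 0.47 ± 0.24 (SE; 95% interval -0.086 to 1.02; limma-trend, unadjusted p = 0.0875), and 0.15 without vector 1. Taf2 (Gene ID 101829829), which contacts the initiator region of promoters, was at 9.63, 15.9 and 15.4 FPKM with vector and 16.7, 16.7 and 16.7 FPKM with STYK1 (0.31 ± 0.17, SE; 0.091 without vector 1). For Taf2 the 3 STYK1 libraries were level, just above vector 2 and vector 3, and vector 1 was far below the rest.

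Taf4 (Gene ID 101837437), a core scaffold subunit, gave a difference that did not rest on vector 1. It measured 25.8, 27.2 and 26.1 FPKM with vector and 29.9, 31.5 and 30.1 FPKM with STYK1, without overlap, and the difference was 0.20 ± 0.083 (SE; limma-trend, unadjusted p = 0.0383) with and 0.19 without vector 1. Taf3 (Gene ID 101834805), which binds a methylated histone H3 tail, measured 9.92, 8.41 and 7.54 FPKM and 10.9, 9.83 and 9.85 FPKM. The groups overlapped through vector 1, and the difference was 0.22 ± 0.13 (SE) with and 0.32 without that library. Taf6 and Taf6l were large members with lower means in STYK1 libraries, at 37.9 ± 5.89 against 33.5 ± 1.62 FPKM and 9.74 ± 1.70 against 8.27 ± 0.793 FPKM (SD, n = 3 each, vector first), with vector 1 the highest library for both. Taf5 was the member of lowest level, at 1.98 ± 0.430 FPKM with vector and 1.98 ± 0.271 FPKM with STYK1. The 4 TAFs of SL1, the selectivity factor of RNA polymerase I (Taf1a to Taf1d), had log2 fold changes from -0.11 to 0.15, and of these only Taf1b, at 12.1, 10.3 and 11.7 against 12.2, 13.6 and 12.3 FPKM, had groups that did not overlap. The paralogs Taf4b and Taf5l, at 8.52 and 12.2 FPKM on average, and Taf7l and Taf8, at 7.34 and 19.6 FPKM, overlapped between groups.

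Taf15 (Gene ID 101844133), a FET-family RNA-binding protein, was variable within both groups, at 13.4, 21.7 and 14.3 FPKM with vector and 20.6, 27.2 and 20.2 FPKM with STYK1. The groups overlapped because vector 2 exceeded STYK1 1 and STYK1 3, and the difference was 0.46 ± 0.19 (SE; limma-trend, unadjusted p = 0.0418), or 0.33 without vector 1.

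Of the 7 genes of TFIIA, TFIIB, TFIIE and TFIIF, 2 were higher in every STYK1 library than in any vector library and 0 were lower in every one, where all genes gave 13.6% and 9.44%. Gtf2a1 (Gene ID 101834968), the precursor of the large TFIIA subunits, measured 18.8, 21.9 and 23.4 FPKM with vector and 24.8, 28.4 and 25.2 FPKM with STYK1 (0.28 ± 0.11, SE; limma-trend, unadjusted p = 0.0337; 0.20 without vector 1). Its partner Gtf2a2 measured 49.5, 53.1 and 52.99 and 52.9, 48.5 and 47.9 FPKM, with overlap. Gtf2e1 (Gene ID 101822656), the large TFIIE subunit, measured 16.1, 16.1 and 15.9 FPKM and 18.7, 19.1 and 16.6 FPKM (0.16 ± 0.10, SE; 0.17 without vector 1); the vector libraries were nearly identical and STYK1 3 lay just above them.

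Gtf2b (Gene ID 101824562), which encodes TFIIB, the bridge between TFIID and the polymerase, measured 23.9, 22.1 and 26.4 FPKM with vector and 27.4, 21.7 and 25.7 FPKM with STYK1, with overlap and a difference of 0.045 ± 0.12 (SE; 95% interval -0.22 to 0.31). The TFIIF subunit Gtf2f1 (Gene ID 101839542) was scattered among the vector libraries, at 8.31, 2.37 and 6.12 FPKM with vector and 4.23, 4.77 and 4.50 FPKM with STYK1. The vector values spanned all of the STYK1 values, and the sign of the difference changed from -0.14 ± 0.33 (SE) to 0.17 when vector 1 was left out. In TFIIH, the helicase-containing factor that opens the promoter, Gtf2h3 (Gene ID 101823932) was lower in every STYK1 library, at 20.9, 21.8 and 20.96 FPKM with vector and 15.9, 17.8 and 19.8 FPKM with STYK1 (-0.24 ± 0.10, SE; limma-trend, unadjusted p = 0.0458; -0.25 without vector 1). The vector libraries, vector 1 included, were close together for this gene. Gtf2h1, Gtf2h4 and Gtf2h5 overlapped between groups, with vector means of 43.1 ± 2.76, 25.5 ± 3.69 and 65.3 ± 7.75 FPKM and STYK1 means of 44.3 ± 0.960, 22.6 ± 2.26 and 63.95 ± 1.97 FPKM (SD, n = 3 each).

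The TFII-I gene Gtf2i, whose product binds initiator and E-box elements, measured 69.6, 71.5 and 69.6 against 74.3, 71.9 and 73.5 FPKM, a narrow gap without overlap, and its relative Gtf2ird1 19.8, 16.4 and 16.3 against 17.7, 21.7 and 17.01 FPKM, with overlap. Gtf2e2 and Gtf2f2, the smaller subunits of TFIIE and TFIIF, averaged 50.9 and 14.4 FPKM and also overlapped.

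TFIIIC, which recognises the internal promoters of transfer RNA genes, had each of its large subunits on the higher side. Only Gtf3c3 and Gtf3c4 among them had groups without overlap. Gtf3c3 (Gene ID 101822412), a scaffold subunit of the complex, measured 11.03, 15.1 and 17.1 FPKM with vector and 19.02, 17.1 and 19.5 FPKM with STYK1. Vector 1 was low and STYK1 2 only just above vector 3, with a difference of 0.36 ± 0.15 (SE; limma-trend, unadjusted p = 0.0480), or 0.19 without vector 1. Gtf3c4 (Gene ID 101835640) was at 10.5, 11.7 and 12.1 FPKM and 13.7, 13.6 and 12.6 FPKM, also without overlap (0.20 ± 0.10, SE; 0.15 without vector 1). The largest subunit, Gtf3c1 (Gene ID 101826220), measured 26.03, 25.6 and 24.6 FPKM with vector and 26.5, 28.2 and 25.8 FPKM with STYK1 (0.075 ± 0.086, SE; 95% interval -0.12 to 0.27). Vector 1 did not stand apart for this very large protein. Gtf3c2 and Gtf3c5 averaged 27.02 and 21.4 FPKM, with overlap. Gtf3c6, the smallest TFIIIC subunit, and Gtf3a, which encodes the 5S-specific factor TFIIIA, had lower means in STYK1 libraries, at 48.95 ± 9.47 against 45.9 ± 5.12 FPKM and 38.5 ± 4.38 against 33.3 ± 1.81 FPKM (SD, n = 3 each, vector first). Of this pair only Gtf3a had groups that did not overlap, and the mean of Gtf3c6 was higher in STYK1 libraries once vector 1 was left out.

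**Figure D4:**
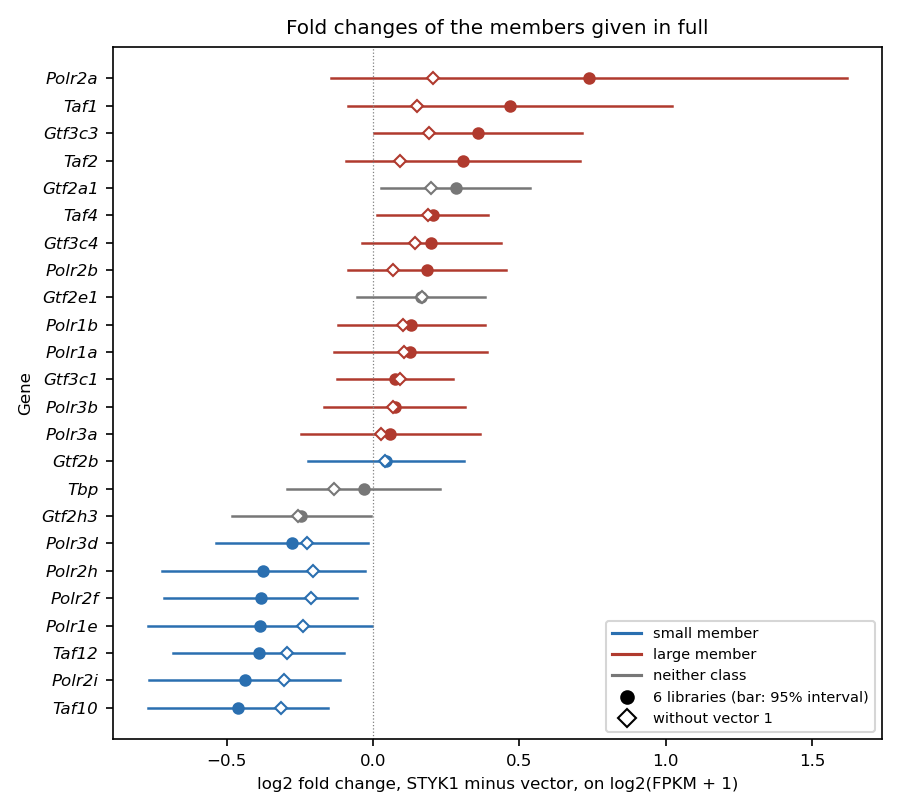
Log2 fold change (STYK1 minus vector on log2(FPKM + 1)) of the 24 members given in full, with dots and 95% intervals from 6 libraries and open diamonds without vector 1. Every small member shown except Gtf2b was picked for lower STYK1 values without overlap, so their place on the left follows from the selection. Gtf2b, picked by role, lies on the right at 0.045. The large members picked by role also lie on the right, while Taf2, Taf4, Gtf3c3 and Gtf3c4 were picked for higher values. Polr2a has the widest interval (-0.14 to 1.62), and most diamonds lie nearer to 0 than the dots.

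The remaining machinery of transcription was read from 8 lists of 92 tested genes that do not carry these names. None passed an adjusted p of 0.05 (limma-trend), their median log2 fold change was 0.0080, and at an unadjusted p under 0.05 there were 6 higher and 4 lower in STYK1 libraries. These were 6.52% and 4.35% of the 92, near the 4.95% and 4.88% of all genes tested. Of 32 genes of RNA polymerase II pausing and elongation, 5 were higher and 1 lower at that level, and 4 and 1 without vector 1. With all libraries these were 15.6% and 3.12%, against 4.95% and 4.88% of all genes tested. Cdc73, of the PAF1 complex, measured 11.1, 14.6 and 16.3 FPKM with vector and 19.2, 19.5 and 17.5 FPKM with STYK1. The elongation factor gene Ell2 measured 7.59, 8.09 and 8.79 and 10.6, 12.3 and 9.40 FPKM. Of 13 RNA polymerase III factors 1 was higher and 0 lower: Pou2f1, an octamer-binding activator, at 2.08, 3.04 and 2.47 FPKM with vector and 3.83, 4.19 and 3.53 FPKM with STYK1. Of 5 TBP regulators 0 were higher and 1 was lower: Drap1, a subunit of the repressor NC2, at 136, 104 and 102 and 94.2, 87.4 and 94.97 FPKM. Each of the lists for polymerase II assembly and C-terminal domain phosphatases (13 genes, with Ctdsp1 at 48.7, 49.7 and 47.8 and 42.3, 37.02 and 44.7 FPKM) and for SAGA subunits (15 genes, with Sf3b5 at 277, 191 and 175 and 150.1, 153 and 179 FPKM) had 0 higher and 1 lower. Sf3b5 had overlapping groups, its log2 difference was -0.39 ± 0.17 (SE) with all libraries and -0.19 without vector 1, and 0 of the SAGA genes were then lower at that level. Without vector 1 the differences of Drap1 and Cdc73 also shrank by over 1.5 times, from -0.29 ± 0.12 and 0.41 ± 0.14 (SE) to -0.16 and 0.26. Of 5 TFIIH partners, 6 RNA polymerase I factors and 3 mitochondrial transcription genes, 0 were called in either direction.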

How the data were processed

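The authors prepared the BHK21 libraries with Illumina's TruSeq RNA kit, per the labels' protocols. Values are FPKM, as deposited and per the file headers. The submitters' processing notes name Bowtie 0.12.2 and the mouse builds mm8 and mm9, with no role; the rows carry hamster NCBI Gene IDs, so which reference was used is not settled. Neither the FPKM tool nor the handling of strand and shared reads is known here. Of 16078 IDs, 15049 matched the RefSeq table of assembly BCM_Maur_2.0, used only for names.

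A gene was tested if its mean reached 1 FPKM with vector or with STYK1; all 74 members did. The test was limma-trend (limma 3.58.1 in R 4.3.3, with the robust option) on log2(FPKM + 1), a scale that understates changes of low genes, with Benjamini-Hochberg adjustment over all genes. The script was tested on simulated data. Size classes came from textbook knowledge, the planned substitute without protein lengths; Polr3gl was placed with Polr3g. Given in full were 10 members picked by role and up to 8 higher and 8 lower members of smallest p whose groups did not overlap; further members were described after their values were seen. The members, classes and lists were chosen with earlier results of these data known. A single member enters every count but is not reported here by name.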

Additional observations from a re-analysis of the deposited data

How the results depend on the processing

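In the 15 fits run (the settings used and 14 alternatives: pseudocount 0.1, no filter, 3 scalings, no robust option, quality weights, the replicate block and 6 fits without 1 library each), 0 members passed an adjusted p of 0.05; the smallest was 0.0583. Size limits by residue number were not run, since no protein lengths were at hand. The count of members higher at an unadjusted p under 0.05, 4 as reported, was 2 without a filter, 8 with equal FPKM sums, 2 after median centring and 9 with quality weights, and 0 to 6 without 1 library. The count of lower members, 8 as reported, was 4 with equal FPKM sums, 5 with the replicate block, 10 after median centring and 12 with quality weights, and 1 to 9 without 1 library. The members' median log2 fold change of -0.024 was 0.076 with equal FPKM sums and 0.019 with quality weights, and -0.051 to 0.028 without 1 library. Shares of all genes called were computed only for the settings used and without vector 1, so most shifts in the counts cannot be set against all genes. The cause of these shifts was not tested. The small-minus-large difference was negative in each of the 15, from -0.33 to -0.17 without 1 library, and -0.26 without mid-sized small members and -0.27 without TBP-associated factors, both chosen after seeing the data. Deviations of same-numbered libraries from their group means had correlations of -0.273, -0.156 and 0.113. These values cannot decide whether the numbers pair libraries, since the deviations within a group cancel and vector 1 stood apart. The replicate block gave 3 higher and 5 lower members.

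Sign changes were tallied over all fits for 37 members only, those given in full and some others with a fold change above. Of these 37, 7 changed sign in some fit. Among all 74 members, 10 took the opposite sign without vector 1. The 7 were as follows. Gtf2b ranged from -0.024 (without STYK1 1; -0.014 without vector 2) to 0.14 without 1 library. Gtf2f1 was 0.29 with quality weights and -0.57 to 0.17 (without vector 1) without 1 library. Polr1f was 0.031 with equal FPKM sums, 0.065 with quality weights and -0.19 to 0.11 (without vector 1) without 1 library. Polr1g was -0.39 to 0.041 (without vector 1). Polr3a was -0.0074 after quantile normalization, -0.068 with quality weights and -0.041 (without STYK1 2) to 0.13 without 1 library. Polr3g was -9.92e-04 with quality weights. Tbp was 0.074 with equal FPKM sums and -0.13 to 0.058 (without vector 2) without 1 library. Depth is unknown, so no counting interval can be given.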
